A study of Arabidopsis thaliana with 8 samples.

Results

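The genes described here are 52 nuclear genes of photosynthesis in Arabidopsis thaliana, out of 22951 genes in the deposited expression table. They were chosen by locus, and fall into 8 groups by the complex their protein belongs to. There are 4 genes of the photosystem I antenna, 9 of the major and 5 of the minor antenna of photosystem II, 12 of the photosystem I core and 10 of the photosystem II core and oxygen-evolving complex. The remaining groups hold 4 electron carriers, 5 genes of Rubisco and its activase and 3 of other Calvin cycle enzymes. Each of the 52 loci had 1 row in the table, and each passed the filter on low values, which asked for 1 FPKM or more on average.

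The samples were whole seedlings aged 5 days, all in the Col-0 ecotype background. They came from bin2-1 (3 libraries), from a line that overexpresses the microRNA gene MIR394A (MIR394A_OE, 2 libraries) and from wild-type Col-0 (3 libraries). Seeds of all 3 groups spent 4 days at 4 °C and then germinated at 22 °C with 16 h of light and 8 h of dark a day. The bin2-1 allele is a gain-of-function mutation of BIN2, a GSK3-like kinase that holds back brassinosteroid signalling. miR394 is a plant microRNA that lowers the F-box gene LCR. The promoter of the overexpression construct, the number of lines behind it, the zygosity of the bin2-1 plants and the hour of harvest do not appear in the labels. Whether replicates were grown as separate sowings is not stated either, so the p-values rest on the spread among these libraries, possibly a technical one.

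In the chloroplast, light-harvesting complexes (LHC proteins, encoded by the LHCA and LHCB genes) bind chlorophyll and pass light energy to photosystems I and II. Photosystem II takes electrons from water. The electrons pass through the cytochrome b6f complex and plastocyanin to photosystem I, and then to ferredoxin. The Calvin cycle uses the products to fix carbon dioxide by way of the enzyme Rubisco. The reaction centre proteins and the large Rubisco subunit are made in the chloroplast. The antenna, the peripheral photosystem subunits, the small Rubisco subunit and most Calvin cycle enzymes are encoded in the nucleus, and their mRNAs respond to light, to sugar, to the clock and to GOLDEN2-LIKE (GLK) transcription factors.

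Levels are in FPKM, the deposited unit, which divides fragment counts by transcript length and library size. Depth was estimated from the steps between low values at 9.74 to 11.3 M (mega) reads a library. At that depth 51 members rested on at least 935 reads in every library. The lowest, LHCB4.3, rested on at least 237, a counting error of 6.49%. The members made up 12% to 17.5% of all FPKM in a library, and RBCS1A, RBCS3B, LHCB1.3 and PSBR held the 4 highest mean levels of the whole table. All of these genes belong to green tissue, while whole seedlings also hold roots. In such bulk samples fewer green cells and less RNA per cell cannot be told apart. The summed level of 8 root and root hair markers was 182 to 199 FPKM in bin2-1, 123 to 128 FPKM in MIR394A_OE and 124 to 227 FPKM in Col-0. None of the 7 root markers tested passed in any comparison, and the eighth, NRT2.1, was at 0 to 0.38 FPKM. In MIR394A_OE, 4 of the 7 were lower than in bin2-1 without overlap, against 20.9% of all genes, with a median log2 fold change of -0.54 over the 7. Against Col-0, 2 were lower without overlap in MIR394A_OE, against 6.17% of all genes, and 0 were lower or higher in bin2-1. The part of root share in the results below was not tested.

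Most photosynthesis genes had lower mean levels in bin2-1 than in Col-0, by small amounts, while their summed level overlapped. The 52 summed to 111627, 97461 and 85425 FPKM in bin2-1 and to 120890, 104328 and 117905 FPKM in Col-0. The log2 fold change, on the log2(FPKM + 1) scale, was below 0 for 50 of 52 members, against 36.6% of the 18798 genes tested. Its median was -0.29 over the members and 0.10 over all genes. No member passed the test (limma, Benjamini-Hochberg adjustment over all genes tested, threshold 0.05), where 0.112% of all genes did, 0.0585% lower and 0.0532% higher. At an unadjusted p under 0.05 there were 7 members, 13.5% of them, against 17.8% of all genes, so that members did not exceed the background by this count. All 3 bin2-1 libraries lay below all 3 Col-0 libraries for 19 members and above them for 0. These 19 were 36.5% of the members, and over all genes the shares were 8.47% below and 20.2% above. Many members rose and fell together between libraries, as described below, so counts of members are not counts of independent results. The direction of single members depended on scaling in part: after quantile scaling, 41 of 52 were below 0, the median was -0.17 and that of Rubisco and its activase turned to 0.03.

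Differences between the groups of genes were not tested. The median was -0.36 over the 18 antenna genes, all of them below 0 (17 after quantile scaling, where LHCB1.3 was at 0.17), and -0.25 over the 34 other members. By group it was -0.43 for the major antenna of photosystem II, -0.40 for the minor antenna and -0.34 for the photosystem I antenna. It was -0.31 for the electron carriers, -0.27 for the other Calvin cycle enzymes, -0.25 for the photosystem I core, -0.24 for photosystem II and -0.21 for Rubisco and its activase. This order depended on the scaling, since after quantile scaling the median was -0.16 for the photosystem I antenna, against -0.23 for the electron carriers and -0.19 for photosystem II. The whole antenna summed to 36462, 28268 and 25002 FPKM in bin2-1, 57319 and 36502 FPKM in MIR394A_OE, and 41528, 32045 and 38935 FPKM in Col-0. The sums of bin2-1 and Col-0 overlapped, since Col-0 replicate 2 was below bin2-1 replicate 1. The groups of genes hold 3 to 12 members each, and their medians lie closer together than the 95% interval of any single member is wide.

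**Figure D1:**
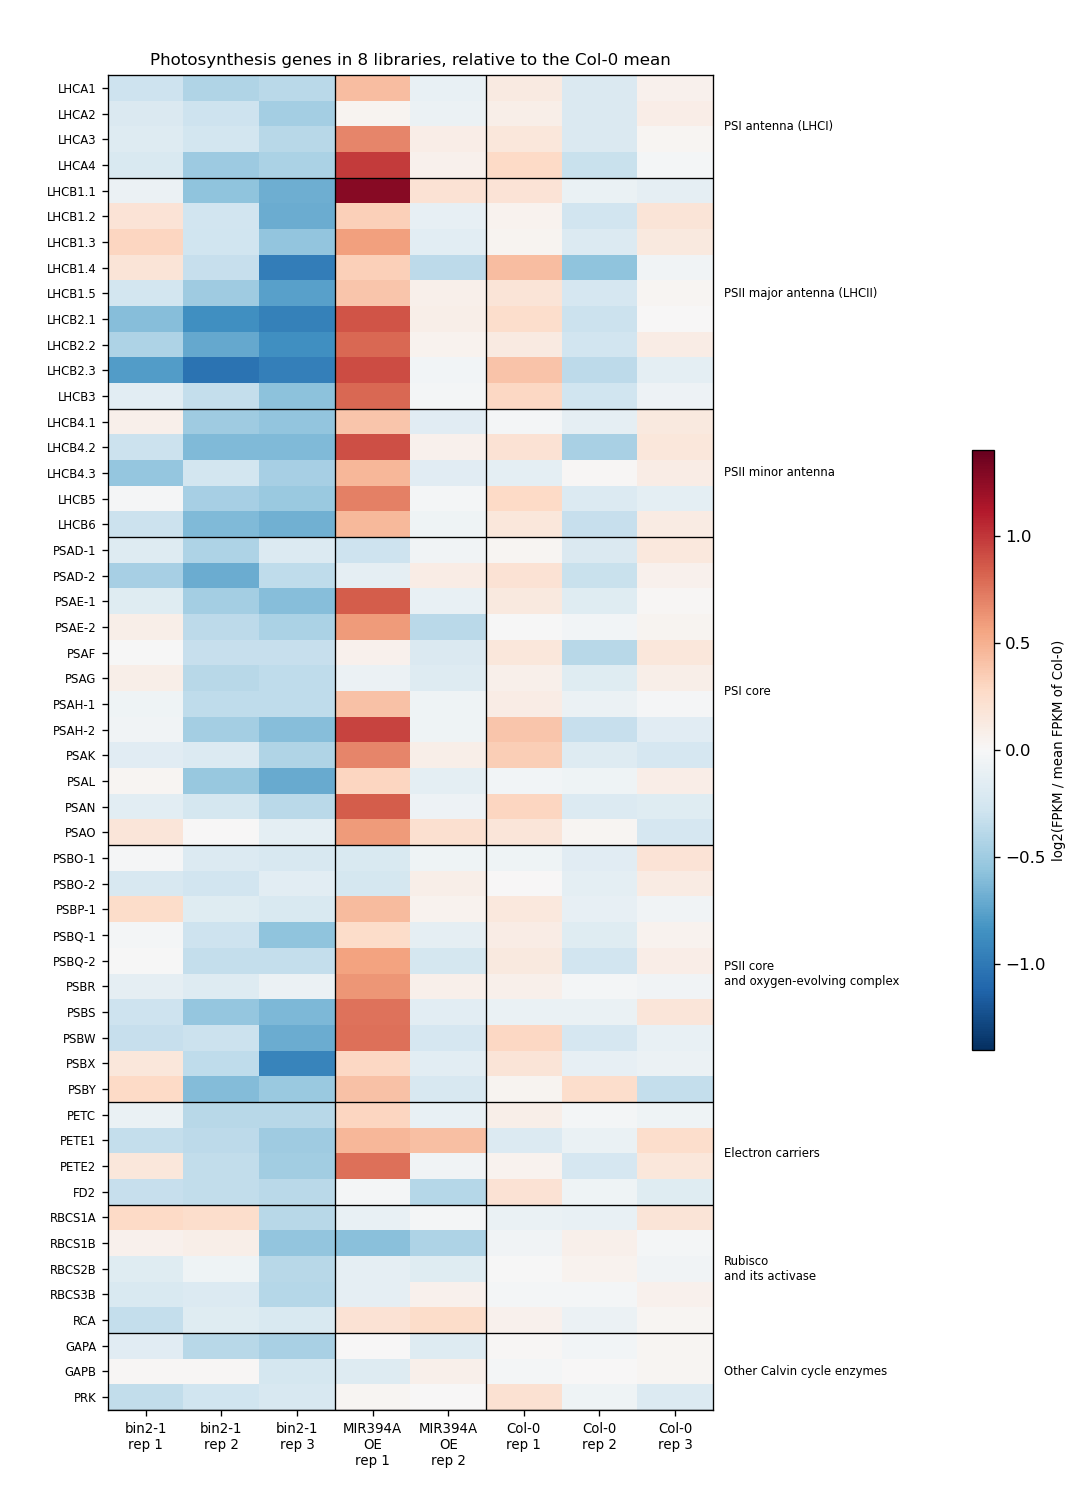
Level of 52 photosynthesis genes (rows, by complex) in 8 libraries (columns: bin2-1, MIR394A OE, Col-0), as log2 of FPKM over the mean FPKM of Col-0. Blue marks values below the Col-0 mean and red values above it. The bin2-1 columns are mostly blue with replicate 3 the deepest, and MIR394A OE replicate 1 is the reddest column in the antenna rows.

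The LHCB2 genes showed the largest differences in bin2-1. They encode a subunit of the LHCII trimer, the main antenna of photosystem II, whose phosphorylation helps to move LHCII between the photosystems. The 250 bases before the transcript start of the 3 genes are shown because these genes differed most. The sequences are from the RefSeq TAIR10.1 assembly, matched by gene, since the deposited table holds no coordinates and its build is not given in the sources used here. LHCB2.1 (AT2G05100) is at chr2:1824481-1824730 and LHCB2.2 (AT2G05070) at chr2:1800473-1800722, both on the minus strand, and LHCB2.3 (AT3G27690) is at chr3:10255691-10255940 on the plus strand. Each is written 5′ to 3′ on the gene's strand, and capitals mark matches to the motifs named below.
LHCB2.1: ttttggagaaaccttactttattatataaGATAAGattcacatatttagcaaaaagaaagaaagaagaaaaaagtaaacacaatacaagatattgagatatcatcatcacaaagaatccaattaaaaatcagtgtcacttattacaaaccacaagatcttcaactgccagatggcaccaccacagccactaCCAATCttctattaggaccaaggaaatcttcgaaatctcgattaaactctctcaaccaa
LHCB2.2: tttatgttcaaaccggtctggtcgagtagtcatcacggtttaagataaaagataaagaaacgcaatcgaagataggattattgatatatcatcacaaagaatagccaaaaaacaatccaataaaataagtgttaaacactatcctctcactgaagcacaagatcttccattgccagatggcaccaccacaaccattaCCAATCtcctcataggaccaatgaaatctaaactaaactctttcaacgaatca
LHCB2.3: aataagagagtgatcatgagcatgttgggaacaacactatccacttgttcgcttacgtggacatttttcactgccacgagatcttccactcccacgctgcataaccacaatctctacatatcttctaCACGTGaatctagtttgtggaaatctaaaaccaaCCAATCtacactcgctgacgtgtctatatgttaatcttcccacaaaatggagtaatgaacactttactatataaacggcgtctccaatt
All 3 windows hold CCAATC, a motif associated with GLK targets, which begins 59 bases before the start in LHCB2.1, 53 bases before it in LHCB2.2 and 89 bases before it in LHCB2.3. The LHCB2.1 window also holds the I-box GATAAG and the LHCB2.3 window the G-box CACGTG. The LHCB2.1 and LHCB2.2 windows share a run of 20 bases, and aligned bases were identical at 79.5%, against 60.2% and 58.0% for their alignments with LHCB2.3.

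LHCB2.3 had 236, 199 and 209.5 FPKM in bin2-1, 767 and 397 FPKM in MIR394A_OE, and 535, 315 and 370.4 FPKM in Col-0. Each bin2-1 library was below each Col-0 library, and MIR394A_OE replicate 1 was the highest of all 8. The mean was 215 ± 19.3 FPKM in bin2-1 and 407 ± 115 FPKM in Col-0 (SD, n = 3 each), which is 47.2% lower in bin2-1 (log2 fold change -0.89, SE 0.27, limma adjusted p = 0.153). LHCB2.1 had 511, 427 and 401 FPKM in bin2-1, 1424 and 816 FPKM in MIR394A_OE, and 915, 627 and 776 FPKM in Col-0. Its mean was 42.2% lower in bin2-1 (log2 fold change -0.78, SE 0.23, limma adjusted p = 0.15), again with no overlap. LHCB2.2 had 535, 440.4 and 398 FPKM in bin2-1, 1262 and 748 FPKM in MIR394A_OE, and 791, 601 and 778 FPKM in Col-0, and its mean was 36.7% lower in bin2-1 (log2 fold change -0.66, SE 0.22, limma adjusted p = 0.189). These last 2 genes were added to the rule for named members after their values were seen. For none of the 3 did the difference pass the adjusted threshold, although each 95% interval lay below 0 (LHCB2.3 -1.49 to -0.28, LHCB2.1 -1.31 to -0.26 and LHCB2.2 -1.16 to -0.16). Coding sequences of LHCB2.1 and LHCB2.2 are 96.6% identical and the genes are neighbours on chromosome 2, so reads may have been split between them, whereas LHCB2.3 shares 84.7% to 85.8% with them. In MIR394A_OE replicate 1 the 3 genes were above every Col-0 library, and in replicate 2 they lay within the Col-0 range. Their log2 fold changes were 0.47, 0.50 and 0.44 for LHCB2.3, LHCB2.1 and LHCB2.2, none past the threshold.

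The other members of the major antenna were the LHCB1 genes, which encode the most abundant LHCII subunit, and LHCB3, a subunit of the trimers next to the photosystem. LHCB1.3 (AT1G29930) had the highest level of the group, with 10828, 7239.9 and 5989.8 FPKM in bin2-1, 13166 and 7936 FPKM in MIR394A_OE, and 9047, 7701 and 9695 FPKM in Col-0. These ranges overlap, and replicate 1 of bin2-1 was above every Col-0 library (log2 fold change -0.17, SE 0.26, limma adjusted p = 0.749). LHCB1.1 (AT1G29920) had 2055, 1473 and 1359.5 FPKM in bin2-1, 5255 and 2509 FPKM in MIR394A_OE, and 2489, 2046 and 1994 FPKM in Col-0. Both MIR394A_OE libraries were above the Col-0 libraries, replicate 2 by a small margin (log2 fold change 0.75, SE 0.31, limma adjusted p = 0.873). In bin2-1 its log2 fold change was -0.43. LHCB1.5 was lower in bin2-1 without overlap, at 3399 ± 587 FPKM in bin2-1 and 4783 ± 681 FPKM in Col-0 (SD, n = 3 each; log2 fold change -0.50, SE 0.19, limma adjusted p = 0.232). LHCB1.2, LHCB1.4 and LHCB3 had log2 fold changes of -0.25, -0.31 and -0.33 in bin2-1 and overlapped with Col-0. LHCB1.2, LHCB1.1 and LHCB1.3 lie side by side on chromosome 1 with coding sequences 95.6% to 96.4% identical, so the division of reads among them is uncertain.

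Measured within each library, the 2 trimer families differed in proportion between bin2-1 and Col-0. The LHCB2 sum as a percentage of the LHCB1 sum was 6.38, 7.39 and 8.51 in bin2-1, 12.2 and 10.9 in MIR394A_OE, and 11.1, 9.61 and 9.79 in Col-0. All bin2-1 libraries were below all Col-0 libraries, at 7.43 ± 1.07% in bin2-1 and 10.2 ± 0.838% in Col-0 (SD, n = 3 each). This percentage does not change with a common factor for each library, but quantile scaling, under which it was not computed, moves single genes by different amounts. It was formed after the values were seen and carries no test. The share of LHCB2.3 within the LHCB2 sum overlapped between groups, at 19.3 ± 1.3% in bin2-1 and 21.2 ± 2.41% in Col-0 (SD, n = 3 each).

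In the antenna of photosystem I, LHCA1 (AT3G54890) had the highest level, with 2821, 2567 and 2649 FPKM in bin2-1, 4663 and 3202 FPKM in MIR394A_OE, and 3768, 2990.4 and 3593 FPKM in Col-0. It was lower in every bin2-1 library than in any Col-0 library, by 22.4% in the mean (log2 fold change -0.36, SE 0.18, limma adjusted p = 0.331), and the threshold was not passed. LHCA4 (AT3G47470), the partner of LHCA1 in a dimer that binds low-energy chlorophylls, had 1661, 1347 and 1416 FPKM in bin2-1, 3780.4 and 2003 FPKM in MIR394A_OE, and 2342, 1547 and 1883 FPKM in Col-0. Its bin2-1 and Col-0 values overlapped (log2 fold change -0.37), and in MIR394A_OE only replicate 1 exceeded the Col-0 range (log2 fold change 0.54, SE 0.28, limma adjusted p = 0.873). LHCA2 and LHCA3 had log2 fold changes of -0.31 and -0.27 in bin2-1 and -0.01 and 0.40 in MIR394A_OE.

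The minor antenna proteins LHCB4, LHCB5 and LHCB6 (CP29, CP26 and CP24) join the LHCII trimers to the photosystem II core. LHCB5 (AT4G10340), the highest of them on average, had 1614, 1187 and 1137 FPKM in bin2-1, 2658 and 1604 FPKM in MIR394A_OE, and 1988, 1429 and 1484 FPKM in Col-0. Its groups overlapped (log2 fold change -0.32, SE 0.24, limma adjusted p = 0.5). LHCB6 (AT1G15820) had 818, 659 and 633 FPKM in bin2-1, 1381 and 967 FPKM in MIR394A_OE, and 1129, 810.0 and 1094 FPKM in Col-0. Only bin2-1 replicate 1 and Col-0 replicate 2 overlapped, and the mean was 30.4% lower in bin2-1 (log2 fold change -0.52, SE 0.20, limma adjusted p = 0.237). LHCB4.2 (AT3G08940) had 545, 436 and 434 FPKM in bin2-1, 1251 and 699.8 FPKM in MIR394A_OE, and 771, 487 and 748 FPKM in Col-0. Here too Col-0 replicate 2 lay within the bin2-1 range (log2 fold change -0.48, SE 0.26, limma adjusted p = 0.351), and the log2 fold change in MIR394A_OE was 0.51. LHCB4.3, at 20.1 to 40.6 FPKM the lowest of the 52, was lower in bin2-1 without overlap (log2 fold change -0.40, SE 0.18, limma adjusted p = 0.29).

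**Figure D2:**
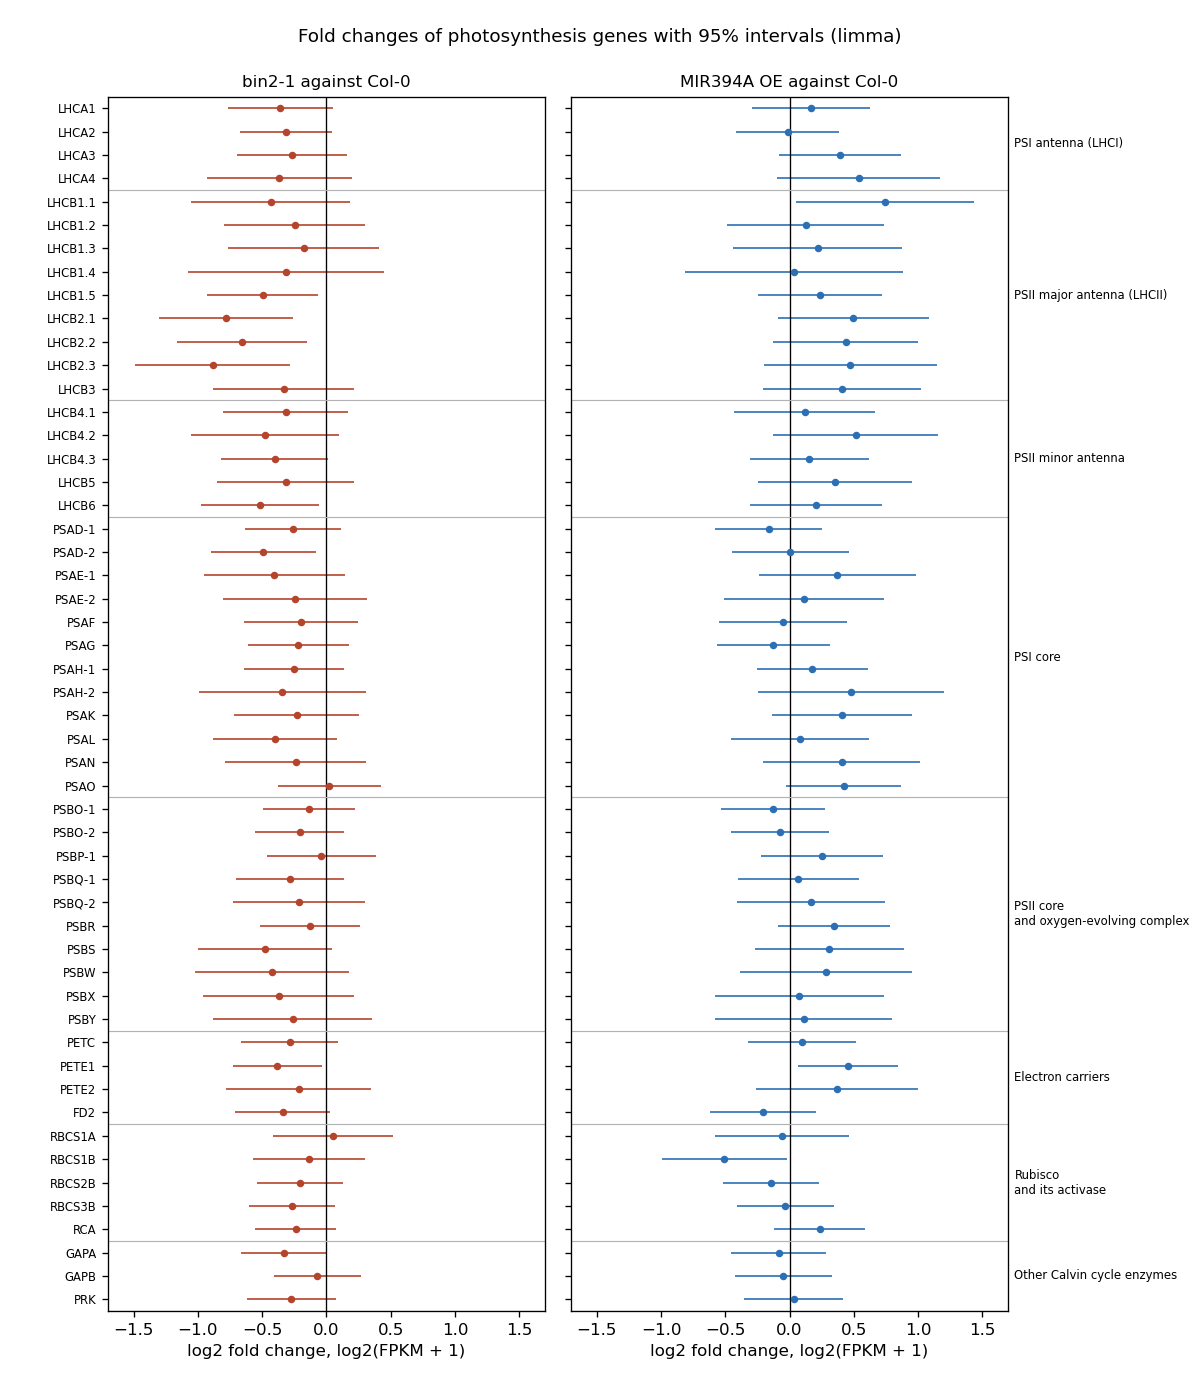
Log2 fold change (x axis, log2(FPKM + 1) scale) of each of 52 genes (y axis, by complex) in bin2-1 against Col-0 (left) and MIR394A OE against Col-0 (right); points are limma estimates and bars their 95% intervals. In bin2-1, 50 of 52 points lie left of 0 and the LHCB2 genes lie farthest left at -0.66 to -0.89; in MIR394A OE, 39 points lie right of 0. Intervals are not adjusted for the number of genes.

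Among the 12 genes of the photosystem I core, 11 had negative log2 fold changes in bin2-1, and 9 after quantile scaling. PSAD and PSAE encode subunits of the stromal side, where ferredoxin docks. PSAD-2 (AT1G03130) had 513, 439.6 and 555 FPKM in bin2-1, 649 and 766 FPKM in MIR394A_OE, and 819, 573 and 741 FPKM in Col-0. All bin2-1 values were below all Col-0 values, with a mean 29.3% lower (log2 fold change -0.49, SE 0.18, limma adjusted p = 0.216). Its copy PSAD-1 (AT4G02770), the highest of the group, had 2253, 1891 and 2238 FPKM in bin2-1, 2083 and 2477 FPKM in MIR394A_OE, and 2598, 2224 and 2839 FPKM in Col-0. The groups overlapped in PSAD-1 (log2 fold change -0.26, SE 0.17, limma adjusted p = 0.426). PSAH-2 (AT1G52230), a subunit where LHCII docks to photosystem I, had 688, 509.6 and 469 FPKM in bin2-1, 1373 and 685 FPKM in MIR394A_OE, and 929.7, 569 and 635 FPKM in Col-0, and its largest difference was in MIR394A_OE (log2 fold change 0.48, SE 0.32, limma adjusted p = 0.873), from replicate 1 alone. PSAO was the 1 member of the group not below 0 in bin2-1, at 0.02. Both MIR394A_OE libraries exceeded every Col-0 library for PSAO, with 2847 and 2210.5 FPKM in MIR394A_OE and 1608 to 2129.7 FPKM in Col-0 (log2 fold change 0.42, SE 0.20, limma adjusted p = 0.873). The remaining 8 genes of the core had log2 fold changes of -0.41 to -0.20 in bin2-1.

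The 10 genes of photosystem II all had negative log2 fold changes in bin2-1 (7 after quantile scaling), and 4 of them did so without overlap (PSBO-2, PSBR, PSBS and PSBW), where 8.47% of all genes did. PSBR (AT1G79040), a small subunit next to the oxygen-evolving complex, had 7171, 6912 and 7443 FPKM in bin2-1, 12012 and 8272 FPKM in MIR394A_OE, and 8274, 7709 and 7577 FPKM in Col-0. The bin2-1 libraries were below the Col-0 libraries by a narrow margin (log2 fold change -0.13, SE 0.17, limma adjusted p = 0.719), and MIR394A_OE replicate 1 was the highest of all. PSBS (AT1G44575), which is needed for the dissipation of excess light energy, had 807, 678 and 635 FPKM in bin2-1, 1663 and 888 FPKM in MIR394A_OE, and 922, 922 and 1107 FPKM in Col-0. Its mean was 28.2% lower in bin2-1 with no overlap (log2 fold change -0.48, SE 0.23, limma adjusted p = 0.311). PSBP-1 and PSBO-1, the main forms of extrinsic proteins of the oxygen-evolving complex, stood at -0.04 and -0.14, and both, like PSBR, were above 0 after quantile scaling. PSBW and PSBX, small membrane subunits, stood at -0.42 and -0.37.

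Of the electron carriers, plastocyanin is encoded by PETE1 and PETE2. PETE2 (AT1G20340), the major copy, had 2346, 1659.8 and 1504 FPKM in bin2-1, 3580.3 and 2031 FPKM in MIR394A_OE, and 2184, 1783 and 2349.7 FPKM in Col-0. Its bin2-1 and Col-0 values overlapped (log2 fold change -0.21, SE 0.25, limma adjusted p = 0.677). PETE1 (AT1G76100) had 113, 111 and 101 FPKM in bin2-1, 196 and 190.5 FPKM in MIR394A_OE, and 124, 133 and 169 FPKM in Col-0. The 3 groups were separate in PETE1, lowest in bin2-1 and highest in MIR394A_OE, with log2 fold changes of -0.38 (SE 0.16, limma adjusted p = 0.247) in bin2-1 and 0.45 (SE 0.17, limma adjusted p = 0.873) in MIR394A_OE. Unlike most antenna genes, PETE1 was level between the 2 MIR394A_OE libraries, at a ratio of 1.03. PETC, the Rieske iron-sulphur protein of the cytochrome b6f complex, and FD2, the major leaf ferredoxin, were lower in bin2-1 without overlap, at -0.29 and -0.34.

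Rubisco fixes carbon dioxide, and the RBCS genes encode its small subunit. RBCS1A (AT1G67090), the highest gene of the table, had 13844, 13568 and 8733 FPKM in bin2-1, 10612 and 11237 FPKM in MIR394A_OE, and 10718, 10658 and 12909 FPKM in Col-0. Replicates 1 and 2 of bin2-1 were the highest of all libraries and replicate 3 the lowest (log2 fold change 0.05, SE 0.21, limma adjusted p = 0.914). RBCS3B (AT5G38410) had 10231, 10398 and 8999.8 FPKM in bin2-1, 10872 and 12338 FPKM in MIR394A_OE, and 11618, 11634 and 12333 FPKM in Col-0, with all bin2-1 values below all Col-0 values (log2 fold change -0.27, SE 0.15, limma adjusted p = 0.373). RBCS1B (AT5G38430) had 2757, 2792 and 1798 FPKM in bin2-1, 1755 and 1962 FPKM in MIR394A_OE, and 2550.1, 2772 and 2590.2 FPKM in Col-0. Both MIR394A_OE libraries were below every Col-0 library in RBCS1B, by 29.5% in the mean (log2 fold change -0.51, SE 0.22, limma adjusted p = 0.873), while in bin2-1 replicate 3 alone was low. RBCS2B was also lower in MIR394A_OE without overlap, at -0.14. The RBCS1B, RBCS2B and RBCS3B genes adjoin each other on chromosome 5 and their coding sequences are 96.7% to 97.3% identical, so values of single copies are uncertain. RCA, the Rubisco activase, was higher in both MIR394A_OE libraries than in any Col-0 library and lower in all bin2-1 libraries, with log2 fold changes of 0.23 in MIR394A_OE and -0.24 in bin2-1, neither past the threshold.

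GAPA and GAPB encode the subunits of the chloroplast glyceraldehyde-3-phosphate dehydrogenase, and PRK is phosphoribulokinase. GAPB (AT1G42970) had 942, 938 and 783 FPKM in bin2-1, 823 and 979 FPKM in MIR394A_OE, and 909.7, 929.6 and 949 FPKM in Col-0. Its groups overlapped and differed little (log2 fold change -0.07, SE 0.15, limma adjusted p = 0.831). GAPA (AT3G26650) had 882, 749.9 and 721 FPKM in bin2-1, 989 and 869 FPKM in MIR394A_OE, and 992, 957 and 1001 FPKM in Col-0, and its bin2-1 libraries were below its Col-0 libraries (log2 fold change -0.33, SE 0.15, limma adjusted p = 0.28). PRK was also lower in bin2-1 without overlap, at -0.27. In MIR394A_OE the 3 genes lay between -0.08 and 0.03.

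Ratios of related genes within a library do not change when the library is multiplied by a common factor, although quantile scaling can move them. Of 10 such ratios and shares, 3 did not overlap between a mutant group and Col-0. PSAD-1 over PSAD-2 was 4.39, 4.3 and 4.03 in bin2-1, 3.21 and 3.23 in MIR394A_OE, and 3.17, 3.89 and 3.83 in Col-0. GAPA over GAPB was 0.936, 0.8 and 0.92 in bin2-1, 1.2 and 0.887 in MIR394A_OE, and 1.09, 1.03 and 1.05 in Col-0. The first was higher and the second lower in all bin2-1 libraries, each with p = 0.1 in a two-sided exact permutation test, the smallest that 3 against 3 allows, and 0.5 after adjustment over the 10. PSAE-1 over PSAE-2 was 3.31, 3.66 and 3.56 in bin2-1, 4.67 and 4.75 in MIR394A_OE, and 4.35, 3.57 and 3.88 in Col-0 (exact permutation p = 0.2, adjusted p = 1). With 2 against 3 libraries, 0.2 is the smallest p that this exact permutation test can give. None of the 3 ratios could therefore pass the threshold of 0.05, and none did. PSAE-1 (AT4G28750) had 1689, 1369 and 1258 FPKM in bin2-1, 3409 and 1762 FPKM in MIR394A_OE, and 2096, 1685 and 1920.2 FPKM in Col-0. PSAE-2 (AT2G20260) had 510.1, 374 and 354 FPKM in bin2-1, 730.2 and 371 FPKM in MIR394A_OE, and 482, 471 and 495 FPKM in Col-0, and in both copies MIR394A_OE replicate 1 was the highest library. The antenna sum over the sum of the 4 RBCS genes, formed after the values were seen and not tested, was 1.21, 0.936 and 1.12 in bin2-1, 2.16 and 1.27 in MIR394A_OE, and 1.46, 1.11 and 1.24 in Col-0. MIR394A_OE replicate 1 was the highest, and the values of bin2-1 and Col-0 overlapped.

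**Figure D3:**
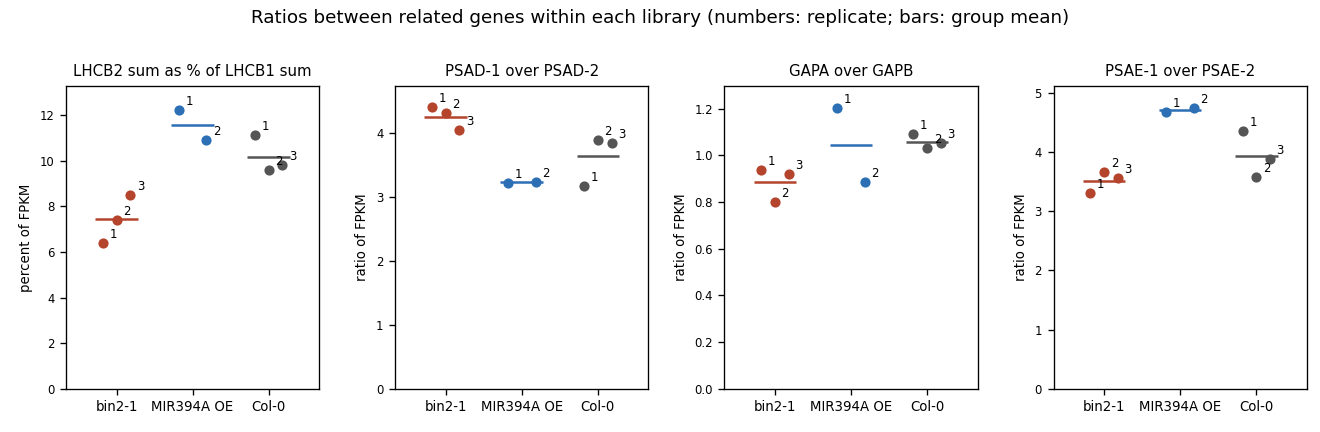
Ratios between related genes (y axes: percent or ratio of FPKM, from 0) in each library of bin2-1, MIR394A OE and Col-0; points are libraries with their replicate number and bars are group means. The LHCB2 to LHCB1 percentage is 6.38 to 8.51 in bin2-1 and 9.61 to 11.1 in Col-0.

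In MIR394A_OE against Col-0 the members had a median log2 fold change of 0.17, against 0.04 over all genes, and 39 of 52 were above 0 (33 to 37 under the 3 other scalings), against 55.6% of all genes. No member passed the test, where 0.0106% of all genes did, and 3 had an unadjusted p under 0.05 (LHCB1.1, PETE1 and RBCS1B), against 4.78% of all genes. Without overlap, 4 members were higher (LHCB1.1, PSAO, PETE1 and RCA) and 2 lower (RBCS1B and RBCS2B), against 10.9% and 6.17% of all genes. These shares of members, 7.69% and 3.85%, were under those of all genes. By group the median was 0.41 for the major antenna, 0.28 for the photosystem I antenna, 0.23 for the carriers and 0.21 for the minor antenna. It was 0.14 for each photosystem core, -0.05 for the other Calvin cycle enzymes and -0.06 for Rubisco and its activase. This comparison and that of bin2-1 share the same 3 Col-0 libraries.

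The 2 MIR394A_OE libraries differed from each other in these genes. Replicate 1 was the highest of the 8 libraries for 35 of 52 members and 16 of 18 antenna genes, against 22.7% of all genes. Its level over that of replicate 2 had a median of 1.4 over the members, 1.64 over the antenna and 0.99 over all genes, and reached 2.09 in LHCB1.1. For Rubisco and its activase the median was 0.944. Replicate 1 also had the largest FPKM total of the table, 832764 against 713459 to 755859 in the other libraries. Without it, the median of the members in MIR394A_OE against Col-0 was -0.05 with 33 of 52 below 0. Over the antenna it was -0.01 with 10 of 18 below 0, so the positive difference was gone there but not reversed. With replicate 1 of both MIR394A_OE and Col-0 left out, the antenna median was 0.13 with 7 of 18 below 0. Without replicate 2 of MIR394A_OE the median of the members was 0.43.

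**Figure D4:**
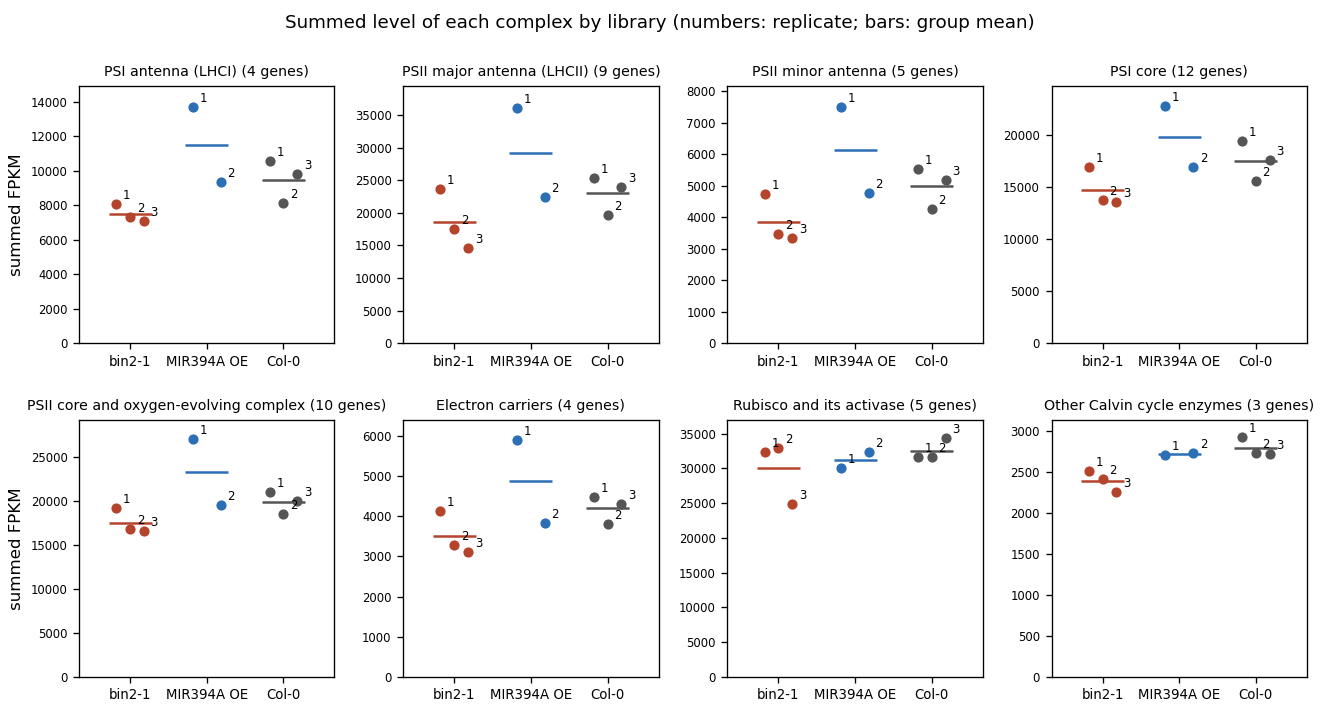
Summed FPKM (y axes, from 0) of the genes of each complex in each library of bin2-1, MIR394A OE and Col-0; points are libraries with their replicate number and bars are group means. MIR394A OE replicate 1 stands above all other libraries in both photosystems, the antenna and the carriers, but not in Rubisco and its activase or the other Calvin cycle enzymes, and replicate 2 lies within the Col-0 range in all 8 panels.

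Set directly against bin2-1, MIR394A_OE was higher for 50 of 52 members (42 after quantile scaling), where 43.8% of all genes were above 0 and 56.2% below 0, with a median of 0.44, against -0.06 over all genes. No member passed the test, where 0.0532% of all genes did (0.0213% higher and 0.0319% lower), and the smallest adjusted p among the members was 0.102. At an unadjusted p under 0.05 there were 23 members, against 19.0% of all genes. Both MIR394A_OE libraries lay above all bin2-1 libraries for 26 members, 13 of them in the antenna, against 15.0% of all genes, where 20.9% of all genes had the opposite order. LHCB2.3 differed most (log2 fold change 1.36, SE 0.30, limma adjusted p = 0.102), and for LHCB1.1 the log2 fold change was 1.18 (SE 0.31, limma adjusted p = 0.122). The 2 genes that were lower were RBCS1B, at -0.37, and RBCS1A, at -0.11. Without MIR394A_OE replicate 2, which leaves replicate 1 alone in that group, the median was 0.97 over the antenna and 0.56 over the other members. Without replicate 1 of MIR394A_OE these medians were 0.35 and 0.19, and that of all members was 0.23.

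The antenna genes also varied between libraries of 1 group. The library numbered 1 was the highest of its group in all 3 groups for 26 of 52 members and 13 of 18 antenna genes, against 11.8% of all genes. In bin2-1, replicate 3 was the lowest of all 8 libraries for 36 of 52 members and 14 of 18 antenna genes, against 11.8% of all genes. DIN1, DIN6 and DIN10 are genes that plants induce in darkness or sugar shortage. Their sum was 269, 578 and 959 FPKM in bin2-1, 260 and 822 FPKM in MIR394A_OE, and 351, 770 and 787 FPKM in Col-0, lowest in replicate 1 of each group, where the antenna sum was highest. None of the 3 passed the test in any comparison, and their part in the results was not tested. Without the 3 libraries numbered 1, a setting chosen after seeing the data, the median of the members was -0.33 in bin2-1 against Col-0 and -0.02 in MIR394A_OE against Col-0, with 0 called. Without bin2-1 replicate 3 it was -0.22 in bin2-1, with 46 of 52 below 0.

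**Figure D5:**
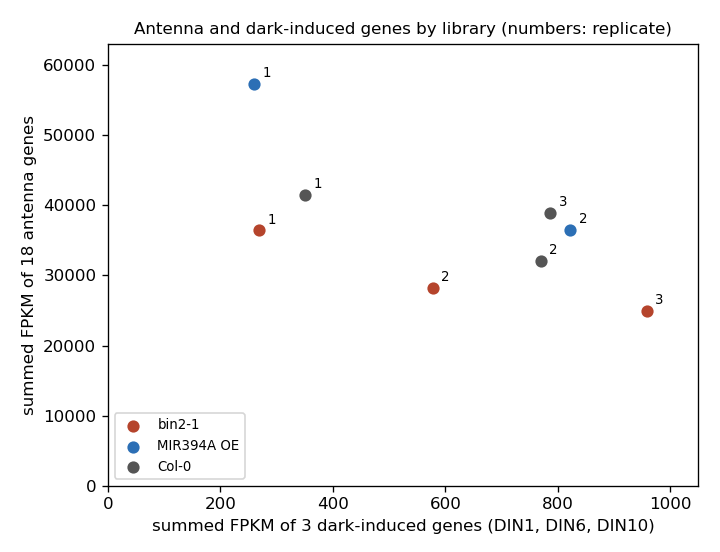
Summed FPKM of 18 antenna genes (y axis) against summed FPKM of DIN1, DIN6 and DIN10 (x axis) in 8 libraries, coloured by group and marked with the replicate number. Libraries numbered 1 lie at the left, at 260 to 351 FPKM of the dark-induced genes, and each has the largest antenna sum of its group.

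A further 32 photosynthesis genes outside the 52 were described in the same way. In bin2-1, 27 of them were below 0, against 36.6% of all genes, with a median of -0.19 and 0 called. In MIR394A_OE, 20 were above 0, against 55.6% of all genes, with a median of 0.05, against 0.04 over all genes, and 0 called. PGR5, which takes part in cyclic electron flow around photosystem I, had 91.9, 99.8 and 92.4 FPKM in bin2-1, 232 and 156 FPKM in MIR394A_OE, and 136, 122 and 123 FPKM in Col-0. Its groups did not overlap, with the lowest values in bin2-1 (log2 fold change -0.42, SE 0.17, limma adjusted p = 0.247) and the highest in MIR394A_OE (log2 fold change 0.58, SE 0.19, limma adjusted p = 0.873). FD1, the minor leaf ferredoxin, had 428, 336 and 250.1 FPKM in bin2-1, 716 and 361 FPKM in MIR394A_OE, and 505, 463 and 562 FPKM in Col-0, with bin2-1 below Col-0 in all libraries (log2 fold change -0.62, SE 0.27, limma adjusted p = 0.276). The 12 further Calvin cycle genes had medians of -0.14 in bin2-1 and 0.004 in MIR394A_OE, and the 3 ATP synthase subunits medians of -0.24 and -0.01. PGR5 and FD1 were singled out after their values were seen.

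GLK1, GLK2, GNC, CGA1 and HY5 are transcription factors that promote photosynthesis genes or greening. All 5 had positive log2 fold changes in bin2-1 with a median of 0.45, where 63.4% of all genes were above 0, and none passed. Without overlap 1 of the 5 was higher, where 20.2% of all genes were. GLK1 had 58.5, 52.8 and 26.5 FPKM in bin2-1, 24.9 and 23.7 FPKM in MIR394A_OE, and 44.4, 26.2 and 32.1 FPKM in Col-0. Its bin2-1 and Col-0 values overlapped (log2 fold change 0.37, SE 0.29, limma adjusted p = 0.531). Both MIR394A_OE libraries were below every Col-0 and bin2-1 library (log2 fold change -0.45 against Col-0, SE 0.33, limma adjusted p = 0.873). In MIR394A_OE against Col-0, 1 of the 5 was higher and 1 lower without overlap, where 10.9% and 6.17% of all genes were. GNC had 16.1, 24.1 and 13.2 FPKM in bin2-1, 11.4 and 6.57 FPKM in MIR394A_OE, and 13.7, 7.20 and 8.42 FPKM in Col-0 (log2 fold change 0.81, SE 0.30, limma adjusted p = 0.216). CGA1 was higher in bin2-1 and in MIR394A_OE without overlap with Col-0, with 4.45, 6.17 and 4.28 FPKM in bin2-1, 5.48 and 5.30 FPKM in MIR394A_OE, and 2.26, 2.66 and 3.68 FPKM in Col-0. Of 10 clock genes none passed, and in MIR394A_OE 6 were above 0 and 4 below. The morning genes CCA1 and LHY were above every Col-0 library in both MIR394A_OE libraries. They were the only 2 of the 10 without overlap, where 10.9% of all genes were higher and 6.17% lower. CCA1 had 9.95, 10.6 and 12.2 FPKM in bin2-1, 25.6 and 21.9 FPKM in MIR394A_OE, and 20.1, 14.6 and 9.36 FPKM in Col-0 (log2 fold change 0.71, SE 0.27, limma adjusted p = 0.873 in MIR394A_OE). LHY had 18.4, 21.3 and 26.9 FPKM in bin2-1, 39.7 and 40.5 FPKM in MIR394A_OE, and 30.4, 25.6 and 22.7 FPKM in Col-0 (log2 fold change 0.60, SE 0.20, limma adjusted p = 0.873 in MIR394A_OE). The evening genes TOC1 and GI were lowest in MIR394A_OE replicate 1, at 30.5 and 9.34 FPKM, while replicate 2 of that group, at 66.5 and 23.5 FPKM, was not low. In bin2-1 the 10 clock genes overlapped with Col-0, where 20.2% of all genes were higher and 8.47% lower without overlap. Of the 10, 5 were above 0 and 5 below, and the part of clock phase in the results was not tested.

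Promoter motifs were searched in the 250 bases before the start of each member and of 22421 genes of the assembly, on both strands. The GLK-associated CCAATC was in 15 of 52 members (28.8%), against 10.3% of all promoters, and in 10 of the 18 antenna genes. The I-box GATAAG was in 16 members (30.8%), against 12.4%, and the G-box CACGTG in 10 (19.2%), against 7.27%. The CCA1-binding site AAAAATCT was in 5 members (9.62%), against 6.57%, and the evening element AAAATATCT in 0, against 2.42%. Within the antenna CCAATC was in 5 of 9 genes of the major antenna, which include all 3 LHCB2 genes, LHCB1.3 and LHCB1.5. It was in 0 of the 12 promoters of the photosystem I core and in 3 of the 4 carriers (PETC, PETE1 and PETE2). A match is a run of letters and does not show that a factor binds there.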

How the data were processed

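Whole seedlings of bin2-1, MIR394A_OE and Col-0 were profiled by RNA-seq of 8 libraries. The authors deposited 1 table of FPKM values per gene, per the file headers. Bowtie2 and HISAT are named per the submitters' processing notes. Which version of each was run and for what, and which build, annotation and strand setting, is not given in the sources used here. Members and gene lists were chosen with earlier results of these data known.

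FPKM values are not counts. They were tested as log2(FPKM + 1), which understates fold changes of low genes, with limma 3.58.1 in R 4.3.3 (group means, eBayes with trend and robust) on the 18798 genes that averaged 1 FPKM or more. All 8 libraries entered 1 fit, so the spread was estimated over all groups. P-values are two-sided and adjusted by Benjamini-Hochberg. The fit was also run on simulated data with independent noise and changes larger than any member showed. That run does not show the power of the test for the members. Members named with every library are, in each complex, the highest one and the largest difference in each comparison with Col-0, and pairs whose ratio did not overlap. LHCB2.1, LHCB2.2 and the genes outside the 52 were added after their values were seen. Gene names and positions came from RefSeq TAIR10.1, where 22798 of 22951 genes matched. Of 69 member transcripts, all matched by accession and 19 also by version. Coding sequences were aligned with Biopython 1.88. Alternatives covered the pseudocount, the filter, 3 scalings, a block for replicate number, fits of 2 groups only, plain eBayes and left-out libraries.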

Additional observations from a re-analysis of the deposited data

How the results depend on the processing

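Each comparison was repeated under 20 alternatives. No member was called in bin2-1 against Col-0 or in MIR394A_OE against Col-0 under any of them. In MIR394A_OE against bin2-1 the count was 0 in 19 of the 20. The exception was the fit without MIR394A_OE replicate 2, which holds 1 library of that group, so its spread was assumed from the other groups. The median log2 fold change of the members was -0.41 to -0.17 in bin2-1 against Col-0, -0.05 to 0.43 in MIR394A_OE against Col-0 and 0.23 to 0.70 in MIR394A_OE against bin2-1. The second turned negative without MIR394A_OE replicate 1 (-0.05) and without replicate 1 of both MIR394A_OE and Col-0 (-0.02). The sign of single members held in all alternatives for 40 of 52 in bin2-1 against Col-0 and for 20 of 52 in MIR394A_OE against Col-0. Some alternatives cannot change a fold change by construction. These are the filter, fits of 2 groups only, plain eBayes and a left-out library of the group outside the comparison. In bin2-1 against Col-0 they include the replicate block, since both groups hold the same replicate numbers. In the comparisons with bin2-1, leaving out replicate 1 of both MIR394A_OE and Col-0 only repeats the fold changes of a single left-out library. A sign that held under those is no evidence of stability. Calls over the whole table ranged from 0 to 180, 0 to 2 and 0 to 2307, where the reported counts were 21, 2 and 10. Scaling by the median of ratios moved the median of all genes in bin2-1 against Col-0 to 0.00475, and that of the members to -0.40. Replicate numbers did not pair the samples throughout, by the correlation of their deviations over all genes tested. It was -0.20 to 0.36 for libraries of the same number and -0.36 to 0.44 for libraries of different number. The deviations of the 2 MIR394A_OE libraries mirror each other, so the -0.36 is fixed by the 0.36. Between bin2-1 and Col-0 alone the correlation was -0.20 to 0.08 for the same number and -0.35 to 0.44 for different numbers. Between libraries numbered 1 it was positive in each pair, at 0.08 to 0.36, and many members were highest in those libraries, as given above. With the replicate block, 0 members were called in all 3 comparisons, with medians of -0.29, 0.16 and 0.41, and 32, 2 and 9 genes of the table. Of 1008 alternative values of single members, 900 moved by less than the spread between replicates. For the median level of the members, the SD within groups was 0.27 on the log2 scale. The median fold changes were -0.29 in bin2-1 and 0.17 in MIR394A_OE against Col-0. A value could thus lose most of its difference and still count as unmoved, so this count is no evidence of stability. With 2 or 3 libraries a group and these spreads, a difference that missed the threshold does not show equal levels.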
